A study of Homo sapiens with 14 samples.

Results

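The response to activation of ER-E2F1 was measured in U2OS cells that carried a scrambled hairpin. In ER-E2F1 the hormone-binding domain of the estrogen receptor is joined to E2F1, a transcription factor, and 4-hydroxytamoxifen (OHT) activates the product. The members are the 8 arrays whose titles name the scrambled hairpin, out of 14 in the series, with 4 arrays of cells given OHT and 4 of cells without it. U2OS is an established human osteosarcoma line. All 8 samples shared a stably expressed ER-E2F1, infection with a lentivirus encoding a scrambled sequence, a change to serum-free medium 24 h after infection, and 24 h in that medium. They were then kept for 6 h in fresh serum-free medium, with 20 nM OHT or without it. The other 6 arrays came from cells infected with shFOXO33 or shFOXO707, hairpin viruses against FOXO1 and FOXO3. Each array measured total RNA from a culture as a whole, so fewer cells of a kind and less RNA per cell cannot be told apart. No label says that the 4 replicates of a group came from separate cultures. The p-values therefore reflect the spread among these arrays alone, and that spread may be technical. Cells without ER-E2F1 were not analysed here, so effects of OHT itself and of ER-E2F1 cannot be told apart, nor can direct and later changes within the 6 h.

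E2F factors bind DNA with a DP partner and are held in check by the retinoblastoma (pocket) proteins. Phosphorylation of these proteins by cyclin-dependent kinases (CDKs) late in G1 frees E2F, which then raises genes for S-phase entry, DNA replication and nucleotide supply. E2F1 is also known to raise genes that favour apoptosis, and it works beside forkhead, MYC and p53 networks. The comparison asks how the transcripts of serum-starved cells differ after 6 h of active E2F1, in families that E2F target lists hold and in families that they leave out.

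The labelled cell type was compared with markers. Among 9 osteoblast and mesenchymal markers on the array, VIM (14296 without OHT, the intermediate filament vimentin), COL1A1 (10116, collagen I) and SPARC (9164, a bone matrix protein) had high mean signals, but the osteoblast regulator RUNX2 (37.8) and the bone sialoprotein gene IBSP (19.4) lay below the level used here for testing, a signal of 79.1, and COL1A2 was at 175. Of the epithelial genes, CLDN4, CDH1 (42.3), ESRP1 (7.24), KRT5 (45.9), KRT14 (59.9) and KRT19 (33.6) lay below that level, while the adhesion gene EPCAM (174 without OHT and 269 with it) and the keratin genes KRT18 (5214) and KRT8 (1631) did not. Summed signals per array ranged from 35162 to 36503 without OHT and 29276 to 31589 with OHT for osteoblast and mesenchymal genes, from 6916 to 7436 without OHT and 5280 to 5564 with OHT for epithelial genes, from 396 to 481 without OHT and 350 to 400 with OHT for blood cell genes, from 125 to 194 without OHT and 137 to 206 with OHT for endothelial genes and from 2851 to 3167 without OHT and 4630 to 4816 with OHT for neural genes. Of the neural sum, NEFL, a neurofilament gene, held 2783 on average without OHT and 4482 with it, whereas the neuronal MAP2 was at 80.2 and 43.7. Among the markers that were tested, 0 rose and 4 fell of 7 (1 and 2 after median centring) in the osteoblast and mesenchymal list, 1 rose and 2 fell of 3 (1 and 1 after median centring) in the epithelial list, 0 rose and 0 fell of 2 (0 and 0 after median centring) in the blood cell list and 1 rose and 1 fell of 2 (1 and 0 after median centring) in the neural list; 0 endothelial markers were tested. The part of other cell types in the results was not tested.

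OHT was followed by changes in most measured genes. Values are MAS5 signals, a linear probe set intensity, and differences are OHT minus no OHT on a log2(signal + 16) scale, so that 1 unit is about 2-fold and changes of dim genes are understated. Of 7720 tested genes 2109 were called higher (27.3%) and 4175 lower (54.1%), 81.4% in all, by limma at a Benjamini-Hochberg adjusted p under 0.05. At least 2-fold changes were called for 781 genes higher (10.1%) and 979 lower (12.7%), and at least 4-fold changes for 209 and 112. The 4 arrays of a group all lay above those of the other in 25.5% of genes for OHT and in 49.9% for cells without it. With so many calls, a single call says little about a gene or family, and the sizes below are read against those shares. Lists with members called each way are common for the same reason. Genes named from a list are mostly its largest called changes each way. That their arrays do not overlap therefore says little, as such genes tend to be separate. The median difference of all genes was -0.23 on the deposited scale and -0.15 after quantile normalization, and the median signal of an array fell from 137 to 142 without OHT to 115 to 118 with OHT. After each array was centred on its median, 2767 genes were called higher (35.8%) and 3099 lower (40.1%), 76% in all, and the share of higher calls moved from 33.6% to 47.2%; after quantile normalization it was 39.3%. Counts after median centring therefore stand in parentheses beside each family's count, and a family's median is to be read against -0.23. A gene is written to have risen or fallen when the deposited values were called.

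Of the 772 genes with a signal over 2752 without OHT, 5 rose and 34 fell at least 2-fold. Among the 781 and 979 genes, 112 had a mean below the filter level of 79.1 without OHT and 170 had one below it with OHT, so that these means alone would not have passed the filter. Within a group the arrays correlated at r from 0.992 to 0.994 over the 7720 genes, and between the groups at 0.844 to 0.855. RNA integrity was read from control probe sets, where the ratio of 3' to 5' signal for ACTB was 1.54 ± 0.04 (SD, n = 4) without OHT and 1.65 ± 0.06 (SD, n = 4) with OHT. That of GAPDH was 1.05 ± 0.04 (SD, n = 4) and 1.05 ± 0.05 (SD, n = 4); the part of RNA integrity in the results was not tested.

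**Figure D1:**
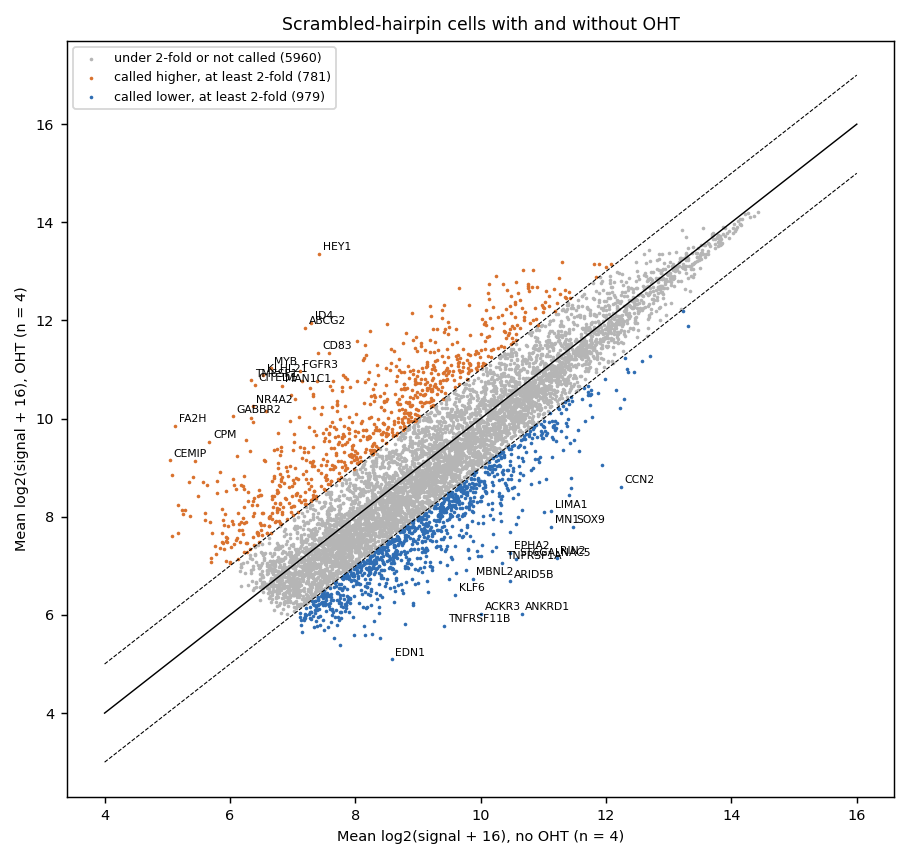
Mean log2(signal + 16) of the 7720 tested genes in scrambled cells without OHT (x axis) and with OHT (y axis), 4 arrays each. Grey points are genes that changed less than 2-fold or were not called, orange and blue points are the 781 genes called higher and the 979 called lower at least 2-fold, and the 15 largest changes each way are labelled; the solid line marks no difference and the dashed lines 2-fold.

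The largest increases were seen in genes of very different kinds. The 15 largest changes each way were taken among called genes whose arrays do not overlap. That their groups are separate therefore follows from this choice, and only the sizes are a result. HEY1, a repressor downstream of Notch, had signals of 159.9, 134, 159 and 174 without OHT and 10649, 10110, 10722 and 10407 with OHT. The fatty acid hydroxylase gene FA2H had 27.3, 13.7, 16.7 and 19.2 without OHT and 921, 998, 717 and 1031 with OHT. The efflux transporter gene ABCG2 had 121, 141, 132 and 129 without OHT and 3739, 3517, 3671 and 3740.3 with OHT. In each of these genes the lowest array with OHT lay far above the highest without OHT. HEY1 and ABCG2 rose by 5.93 ± 0.06 (SE) and 4.65 ± 0.05 (SE) log2. Every FA2H signal without OHT lay below 79.1, where the 16 added before taking logs affects the size of the difference. For FA2H it was 4.73 ± 0.14 (SE) with 16, 5.53 with 1 and 3.55 with 64, and measured against 79.1 in place of the dim signals FA2H rose at least 11.5-fold. ID4, which sequesters helix-loop-helix factors, had signals of 165, 130.2, 107 and 173 without OHT and 3998, 3855, 3995 and 3909.9 with OHT. The transcription factor gene MYB had 53.1, 87.2, 105 and 101 without OHT and 1923, 2143, 2052 and 2166 with OHT. For KLHL21, a CUL3 ligase adaptor that acts in cytokinesis, they were 89.9, 70.7, 109 and 47.1 without OHT and 2084, 1874, 1791 and 1746 with OHT. For ID4, MYB and KLHL21 the differences were 4.65 ± 0.11 (SE), 4.38 ± 0.14 (SE) and 4.35 ± 0.16 (SE). The other genes among the 15 largest increases were TM6SF1 (4.44), the coactivator CITED1 (4.29), the hyaluronan-degrading CEMIP (4.11), the GABA-B receptor subunit GABBR2 (4.0), the dendritic cell surface gene CD83 (3.92), the orphan nuclear receptor NR4A2 (3.89), carboxypeptidase M gene CPM (3.86), the receptor kinase FGFR3 (3.85) and the mannosidase MAN1C1 (3.85). All 15 had adjusted p-values of at most 6.9e-10. In 6 of the 15, FA2H among them, all arrays without OHT lay below 79.1, and only a bound can be given: TM6SF1 rose at least 22-fold, NR4A2 15.2-fold, GABBR2 13.2-fold, CPM 9.14-fold and CEMIP 6.96-fold. With 1 or 64 added in place of 16, 12 of the 15 were still among the 15 largest increases.

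The 15 genes that fell most had mean signals of 369 or more without OHT. ANKRD1, an ankyrin repeat cofactor, had signals of 1661, 1660.5, 1525 and 1532 without OHT and 39.7, 54.7, 53.9 and 49.2 with OHT. RIN2, an exchange factor of the endocytic GTPase RAB5, had 2366, 2212, 2706 and 2189.8 without OHT and 107, 138, 158 and 112 with OHT. The chemokine scavenger receptor gene ACKR3 had 985, 989, 972 and 1102 without OHT and 37.1, 63.3, 48.7 and 49.4 with OHT. With OHT the signals were a small part of those without it. They fell, with differences of -4.63 ± 0.09 (SE), -4.05 ± 0.11 (SE) and -3.98 ± 0.11 (SE). ARID5B, a chromatin regulator, had signals of 1487, 1388, 1362 and 1394 without OHT and 74.4, 91.2, 92.3 and 90.3 with OHT. SOX9, the chondrocyte regulator, had 2753, 2932, 2797 and 2766 without OHT and 179, 217, 229 and 205 with OHT. TNFRSF11B, which encodes the decoy receptor osteoprotegerin, had 713, 687, 698 and 581 without OHT and 33.2, 20.5, 55.8 and 55.5 with OHT. Again the groups lay far apart, with differences of -3.79 ± 0.08 (SE), -3.67 ± 0.07 (SE) and -3.63 ± 0.19 (SE). The others among the 15 largest decreases were CCN2 (-3.62), endothelin-1 gene EDN1 (-3.49), the sialyltransferase ST6GALNAC5 (-3.43), MN1 (-3.32), the TNF receptor TNFRSF1A (-3.28), the ephrin receptor EPHA2 (-3.20), KLF6 (-3.18), the splicing regulator MBNL2 (-3.13) and the actin-bundling LIMA1 (-3.02), with adjusted p-values of at most 6.75e-10. In 5 of these 15 all arrays with OHT lay below 79.1, and against that level ANKRD1 fell at least 20.1-fold, ACKR3 12.8-fold, KLF6 9.56-fold, TNFRSF11B 8.44-fold and EDN1 4.64-fold. With 1 added, 13 of the 15 were still among the 15 largest decreases, and with 64 added 12 were.

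The same limit held for other named genes. Without OHT all arrays lay below 79.1 for IRX4 (at least 9.41-fold higher with OHT), USP18 (8.04), KCNK10 (5.48), WNT10B (5.35), EGR4 (5.06), MMP15 (4.9), NR4A3 (4.31), KCNA3 (4.14), COL15A1 (3.21) and NGFR (3.17). With OHT they lay below it for LIF (at least 5.39-fold lower), PDGFRB (2.41), CAVIN2 (2.37), CHST15 (2.12), CDK6 (2.08), HAS2 (2.05), FANCF (2.05), SOX2 (1.97), SLC1A3 (1.92), RGS16 (1.63) and MDM2 (1.49). The log2 differences given for these genes describe signals with 16 added and set no order among them.

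**Figure D2:**
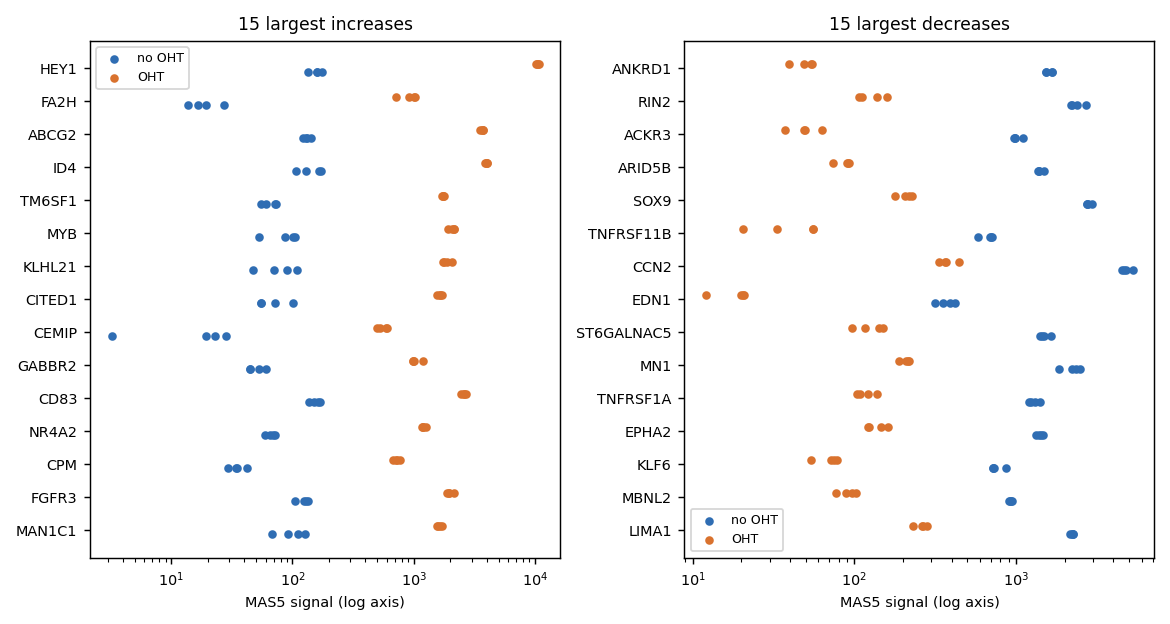
MAS5 signal on a log axis of the 15 genes with the largest increases (left) and the 15 with the largest decreases (right) of log2(signal + 16) in scrambled cells; each point is 1 array, blue without OHT and orange with OHT, 4 of each per gene. The 30 genes were chosen among those whose arrays do not overlap, so the separation of orange and blue points follows from that choice. FA2H, for example, went from a mean signal of 19.2 to 917 and EDN1 from 369 to 18.4.

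Several regulators of the G1/S transition rose at least 2-fold, among them both cyclin E genes. The list of E2F, DP and pocket proteins had 13 tested genes of 18, of which 5 rose and 4 fell (5 and 2 after median centring), with a median of -0.11. The repressor E2F8 (1.25), the pocket protein RB1 (0.82) and the partner TFDP1 (0.70) rose, and LIN37 (-1.38), a subunit of the DREAM repressor complex, and E2F5 (-0.73) fell. E2F1 itself had signals of 209.5, 254, 207 and 240 without OHT and 195, 196, 189 and 203 with OHT. These arrays did not overlap, but the difference did not pass the test: its 2 probe sets were at -0.20 (adjusted p = 0.0811) and 0.18 (adjusted p = 0.169) in a fit of all probe sets naming 1 gene. Without array 1 or array 3 of the cells without OHT the gene was called lower (-0.24 in each case, limma adjusted p = 0.0357 and 0.0339). The labels do not state whether the probe sets detect the fusion transcript. Of 23 tested genes among the 24 listed as cyclins, CDKs and CDC25, 8 rose and 12 fell (10 and 10 after median centring), and 4 (17.4%) rose and 5 (21.7%) fell at least 2-fold. The cyclin E gene CCNE1, whose product activates CDK2, had signals of 1214, 1146, 1007 and 1069.7 without OHT and 6521, 6738, 7117 and 7079 with OHT. CCNE2 had 597, 683, 724 and 659 without OHT and 4873, 5402, 4999.8 and 5185 with OHT. Both sets of arrays lay apart, by 2.62 ± 0.05 (SE) and 2.91 ± 0.06 (SE) log2. The cyclin D gene CCND3 (2.20) and the phosphatase CDC25A (1.49), which removes inhibitory phosphate from CDK2, rose too, whereas cyclin G2 gene CCNG2 (-1.81) and the kinase genes CDK7 (-1.67) and CDK6 (-1.23) fell. CDK inhibitors had 5 tested genes out of 8, and 3 rose and 1 fell (4 and 1 after median centring): CDKN1C (2.17), CDKN1B (1.46) and CDKN2D (0.74) rose, CDKN3, a phosphatase of CDK2, fell (-0.70), and the p53 target CDKN1A was at -0.03 (adjusted p = 0.605).

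DNA replication genes moved both ways, most of them by less than 2-fold. For DNA replication and nucleotide synthesis, 55 of 57 listed genes were tested, of which 23 rose and 24 fell (27 and 20 after median centring), and 4 (7.3%) rose and 4 (7.3%) fell at least 2-fold. Histone mRNA-binding SLBP (2.22), the cohesion factor DSCC1 (1.84) and DBF4 (1.60), activator of the CDC7 kinase, rose most. The origin recognition subunits ORC4 (-1.70), ORC5 (-1.53) and ORC1 (-1.45) fell most. Among members known as E2F targets, RRM2, a ribonucleotide reductase subunit, had signals of 9956, 9672, 10170 and 9775 without OHT and 13650, 12730, 13699 and 13184 with OHT, and rose by 0.43. The licensing factor CDC6 had 1098, 1168, 1219.5 and 1153 without OHT and 1373, 1499.9, 1445 and 1359.8 with OHT. The sliding clamp gene PCNA had 6457, 5685, 6651 and 7156 without OHT and 6984, 7326, 7293 and 7208 with OHT. The arrays of CDC6 did not overlap between the groups and those of PCNA did. CDC6 and PCNA rose by 0.29 and 0.16 (limma adjusted p = 0.000106 and 0.0208), the helicase subunit MCM2 fell (-0.49) and MCM3 was at 0.01 (limma adjusted p = 0.914). The PCNA call was lost without array 2 of the cells without OHT (0.09, limma adjusted p = 0.0514), and those of CDC6 and PCNA in a fit of all 14 arrays with the hairpins pooled (limma adjusted p = 0.0721 and 0.102). The list of DNA repair and checkpoint had 47 tested genes of 59, of which 6 rose and 33 fell (8 and 26 after median centring), and 0 and 11 of them changed at least 2-fold. The damage sensor XPC (-2.11), FANCF (-1.59), RAD54B (-1.54), BRCA1 (-1.11) and the kinase gene ATM (-0.88) fell, and the mismatch repair gene MSH6 rose (0.91). Of 41 tested genes among the 42 listed for mitosis and kinetochore, 5 rose and 31 fell (8 and 25 after median centring), and 0 and 8 changed at least 2-fold. The kinetochore genes CENPE (-1.89), CENPA (-1.64) and the checkpoint kinases TTK (-1.46) and BUB1 (-0.88) fell, and the midzone organiser PRC1 (0.69) rose.

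**Figure D3:**
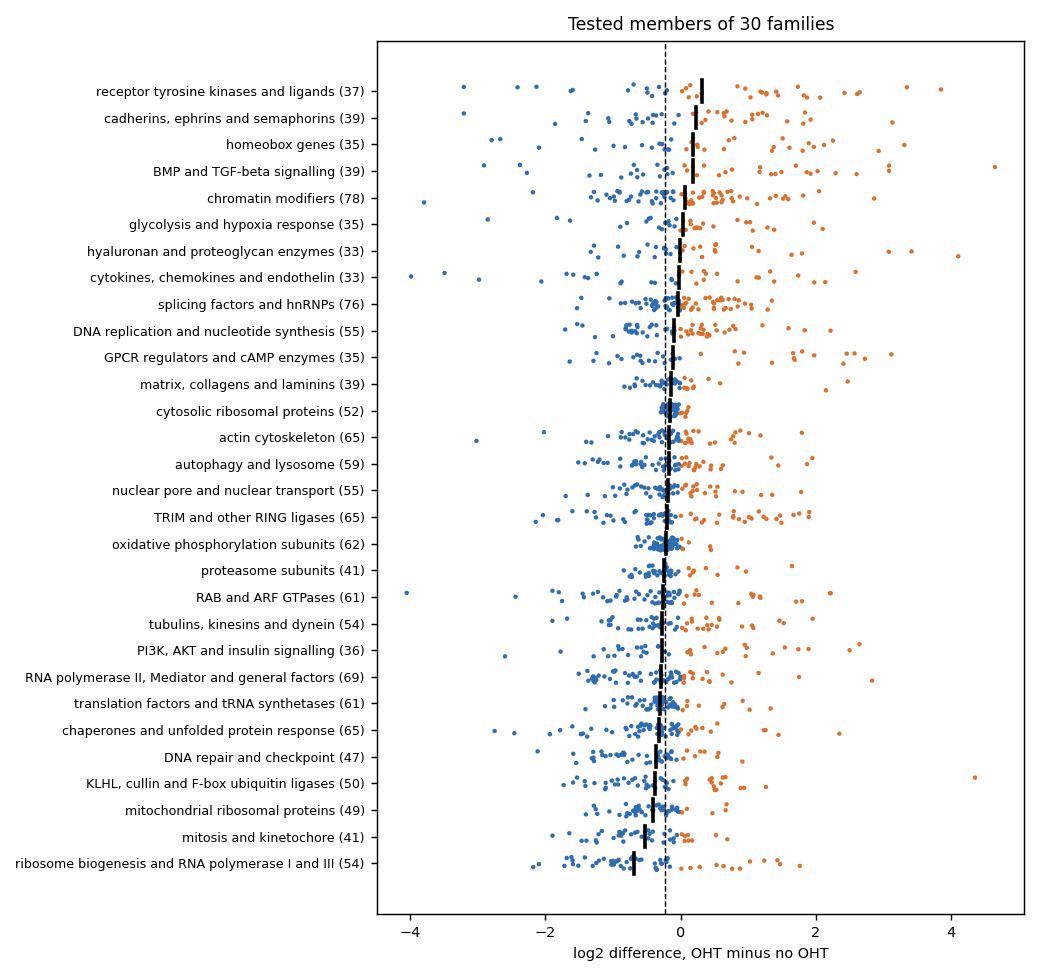
Log2 difference (OHT minus no OHT) of every tested member of 30 families with many tested genes in scrambled cells, 1 point per gene, orange above 0 and blue below it whether called or not, with the family's median as a black bar; families are ordered by their median. The dashed line marks the median of all 7720 tested genes, -0.23, and families differ in spread: cytosolic ribosomal proteins lie within a narrow band while receptor kinases and ligands run from EPHA2 at -3.20 to FGFR3 at 3.85.

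Sequences upstream of starts were searched for letters known to be bound by E2F. RefSeq windows of 300 bases (250 before and 50 after a transcription start, assembly GRCh38.p14) were found for 6440 of the 7720 genes, 9775 windows in all. The words searched were TTTGGCGC, TTTCCCGC, TTTCGCGC and TTTGCCGC on either strand. A word was present in 32.8% of 64 windows of DNA replication genes, in 5.1% of the windows of all tested genes and in 3.3% of all 35116 windows of the table. It was present in 4.7% of the 1035 windows of genes called higher at least 2-fold, in 4.1% of the 1300 windows of those called lower at least 2-fold and in 5.2% of the 1766 windows of genes not called. Of the 15 largest increases 13 had a window and 1, CITED1, held a word. No match says only that these letters are not in the window. The 250 bases before the start are shown for a gene that rose, CDC25A, for CITED1, and for E2F1, whose level did not pass the test, with the words in capitals, 5′ to 3′ on the strand of the gene.
CDC25A, chr3:48188418-48188667, strand -: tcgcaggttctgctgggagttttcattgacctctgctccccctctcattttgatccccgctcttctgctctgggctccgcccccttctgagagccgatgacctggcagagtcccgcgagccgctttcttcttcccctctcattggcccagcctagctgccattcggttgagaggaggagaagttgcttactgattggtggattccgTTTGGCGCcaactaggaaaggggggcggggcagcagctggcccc
CITED1, chrX:72307158-72307407, strand -: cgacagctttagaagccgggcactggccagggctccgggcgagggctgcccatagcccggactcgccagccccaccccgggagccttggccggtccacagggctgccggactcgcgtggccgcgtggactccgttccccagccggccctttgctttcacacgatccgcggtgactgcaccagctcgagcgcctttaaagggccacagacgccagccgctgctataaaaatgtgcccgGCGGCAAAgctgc
E2F1, chr20:33686386-33686635, strand -: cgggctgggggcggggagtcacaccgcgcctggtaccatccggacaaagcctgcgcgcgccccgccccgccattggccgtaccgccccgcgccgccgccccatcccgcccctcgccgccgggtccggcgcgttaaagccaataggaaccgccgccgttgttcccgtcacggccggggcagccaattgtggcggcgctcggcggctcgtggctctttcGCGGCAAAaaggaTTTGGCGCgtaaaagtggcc
The word lay 44 bases before the start in CDC25A and 13 bases before the start shown for CITED1, and E2F1 held words 33 and 20 bases before its start. CDC25A and CITED1 thus held a word and changed by 1.49 and 4.29, and E2F1 held a pair of words.

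Genes that promote cell death and genes of survival each changed in both directions. The BCL2 family had 15 tested genes out of 19, and 6 rose and 8 fell (7 and 7 after median centring), with 2 and 4 changing at least 2-fold. HRK, a BH3-only gene that promotes death, had signals of 137, 154, 144 and 150.1 without OHT and 1291, 1126, 1090.2 and 1213 with OHT. The survival gene BCL2 had 178, 193, 160.4 and 180.1 without OHT and 1031, 896, 834 and 874 with OHT. PMAIP1, which encodes the BH3-only protein NOXA, had 5464, 5465, 5759 and 5665 without OHT and 1826, 2121, 2061 and 1888 with OHT. The groups did not overlap in these genes, which are among the largest changes of the list. A promoter of death (HRK, 2.88) and a survival gene (BCL2, 2.25) both rose, while PMAIP1 (-1.50) and the survival gene BCL2L1 (-1.31) both fell. For caspases and apoptosome, 14 of 22 listed genes were tested, of which 4 rose and 9 fell (5 and 8 after median centring). APAF1, the scaffold of the apoptosome, rose by 2.05 ± 0.13 (SE), and the receptor-proximal CASP8 (-2.36), its inhibitor CFLAR (-2.03) and the adaptor FADD (-1.23) fell. The list of TNF receptors and ligands had 14 tested genes of 29, of which 3 rose and 10 fell (3 and 9 after median centring), with a median of -1.02, and 2 (14.3%) rose and 7 (50%) fell at least 2-fold. TNFRSF1A, the main receptor for TNF, had signals of 1209.5, 1401, 1232 and 1314 without OHT and 109, 122, 105 and 139 with OHT. Lower levels were also called for TNFSF9 (-2.33), the death receptors FAS (-1.58) and TNFRSF10B (-1.04), besides TNFRSF11B given above, whereas the neurotrophin receptor NGFR (2.13) and the adaptor TRAF3 (1.90) rose. Of 8 tested genes among the 13 listed as p53 family and regulators, 5 rose and 3 fell (5 and 3 after median centring): the p53 cofactors PPP1R13B (1.68) and TP53BP2 (1.0) and the deubiquitinase USP7 (1.38) rose, and the inhibitory relative PPP1R13L (-1.85) and MDM2 (-0.70) fell. MAP3K5 and JNK/p38 kinases had 20 tested genes out of 27, and 3 rose and 11 fell (4 and 10 after median centring). MAP3K5, a stress kinase, had signals of 282, 301, 290.1 and 267 without OHT and 3432, 3681, 3523 and 3482 with OHT, a rise of 3.56 ± 0.05 (SE), while MAP3K12 (-1.17) and MAP3K7 (-1.09) fell.

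Ligands of Notch and its target HEY1 rose while the receptor NOTCH2 fell. For the Notch pathway, 21 of 36 listed genes were tested, of which 6 rose and 8 fell (9 and 7 after median centring), with 4 and 1 changing at least 2-fold. The ligand gene JAG1 had signals of 318, 372, 359 and 333 without OHT and 1618, 1746, 1583 and 1585 with OHT. JAG2 had 105, 121, 113 and 117 without OHT and 806, 759, 783 and 866 with OHT. The receptor gene NOTCH2 had 2548, 2318, 2524 and 2500 without OHT and 862, 871, 843 and 822 with OHT. Each of the 3 was separated between the groups, at 2.19 ± 0.06 (SE), 2.66 ± 0.07 (SE) and -1.52 ± 0.04 (SE). NOTCH1 (0.35, adjusted p = 0.103) and HES1 (0.15, adjusted p = 0.0627), a target of Notch like HEY1, were not called. Both were called higher after median centring (0.54 and 0.34), NOTCH1 also without array 1 of the cells without OHT (0.50), and HES1 without that array (0.19) or without array 2 or 3 of those with OHT (0.20 and 0.18).

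BMP and TGF-beta genes changed in both directions, with relatives apart. The list of BMP and TGF-beta signalling had 39 tested genes of 47, of which 19 rose and 15 fell (22 and 11 after median centring), and 14 (35.9%) rose and 5 (12.8%) fell at least 2-fold. The ligand gene BMP2 had signals of 249, 249, 304 and 269 without OHT and 2596, 2237, 2212 and 2505 with OHT. BMP4 had 2159.9, 2061, 2055 and 2123 without OHT and 435, 437, 426 and 392 with OHT. The ligands thus moved in opposite directions (3.08 ± 0.07 (SE) and -2.27 ± 0.05 (SE)), and the arrays of neither overlapped. The receptor TGFBR2 (-2.91) and the activin subunit INHBA (-2.37) fell. ID genes, which BMP signals are known to raise, split as well. ID3 had signals of 212, 197, 195 and 229 without OHT and 1865, 1882, 1874 and 1902 with OHT. ID1 had 1225, 1413, 1389 and 1353 without OHT and 927, 857, 900.5 and 962 with OHT. ID3 and ID4 rose by 3.08 and 4.65, ID2 by 0.57, and ID1 fell by 0.55. SMAD7, a feedback inhibitor, rose by 0.24, although its arrays overlapped between the groups, and the call was lost without any 1 of array 1, 2 or 3 of the cells without OHT (0.22, 0.21 and 0.23) or array 1 of those with OHT (0.15).

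Receptor kinases and WNT components held strong increases and strong decreases. For receptor tyrosine kinases and ligands, 37 of 58 listed genes were tested, of which 19 rose and 11 fell (23 and 10 after median centring), and 16 (43.2%) rose and 5 (13.5%) fell at least 2-fold. FGFR3, a receptor for fibroblast growth factors, had signals of 124, 129, 133 and 105 without OHT and 1953, 1938, 2160.2 and 1875 with OHT. VEGFC, a lymphatic growth factor, had 143, 150.4, 141 and 125 without OHT and 1407, 1569, 1626 and 1678 with OHT. The ephrin receptor gene EPHA2 had 1337, 1379, 1418 and 1466 without OHT and 121, 147, 162 and 124 with OHT. None of these overlapped. MET (2.42), the receptor for hepatocyte growth factor, FGF9 (2.65) and FGFR1 (1.20) also rose, and PDGFC (-2.41), the receptor gene PDGFRB (-1.59) and EGFR (-0.78) fell. The WNT pathway had 27 tested genes out of 51, and 11 rose and 9 fell (14 and 6 after median centring), with a median of 0.02, and 9 and 4 changed at least 2-fold. The receptor genes FZD5 (2.78) and FZD1 (2.53), the ligand WNT10B (2.73) and the nuclear effector LEF1 (2.49) rose. LEF1 had signals of 729.6, 712, 683 and 675 without OHT and 4257, 3958, 3998 and 3843 with OHT. APC (-1.83, or -1.17 as the mean of its probe sets), which restrains beta-catenin, the receptor LGR4 (-1.40) and TCF7L2 (-1.22), another nuclear effector, fell.

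Genes of the Hippo and YAP target list changed in both directions, and CCN2 and ANKRD1, known targets, fell steeply. For the Hippo pathway and YAP targets, 25 of 36 listed genes were tested, of which 10 rose and 13 fell (11 and 11 after median centring), with 4 and 8 changing at least 2-fold. CCN2, a matricellular protein and YAP target like ANKRD1, had signals of 4799, 4499, 4645 and 5291 without OHT and 367, 333, 445 and 365 with OHT. CCN1 had 5366, 6138, 5998 and 6892 without OHT and 2255, 2359, 2401 and 2200.5 with OHT. Neither overlapped, and both fell, at -3.62 ± 0.08 (SE) and -1.39 ± 0.06 (SE). FJX1 (-1.62) fell too, while TEAD4 (2.29), a DNA-binding partner of YAP, FOXF2 (2.43) and ASAP1 (1.71) rose, and AMOTL2 fell by 0.30, a call that median centring removed. TEAD factors are known to bind the letters GGAATG. These were present on either strand in 29.6% of 27 windows of this list, in 11.2% of the windows of all tested genes, in 11.2% of the 1766 windows of genes not called and in 14% of all 35116 windows in the table. They were in 11.3% of the 1300 windows of genes called lower at least 2-fold and in 7.9% of the 1035 windows of those called higher, a share for the lower genes close to that of all tested genes. At 4-fold the shares were 17.5% of 189 windows for lower genes and 8.8% of 249 for higher genes. Of other listed genes whose windows held the letters, FOXF2, PTPN14 (0.44) and YAP1 (0.36) rose and TGFB2 (-1.35), AXL (-0.49) and AMOTL2 fell. The upstream bases of CCN2 and ANKRD1, picked because they fell steeply, are shown with these words in capitals.
CCN2, chr6:131951373-131951622, strand -: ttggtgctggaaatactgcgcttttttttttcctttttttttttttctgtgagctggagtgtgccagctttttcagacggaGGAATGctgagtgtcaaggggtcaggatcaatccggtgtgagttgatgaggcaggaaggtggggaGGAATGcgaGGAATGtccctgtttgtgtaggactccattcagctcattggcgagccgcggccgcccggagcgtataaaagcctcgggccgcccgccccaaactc
ANKRD1, chr10:90921088-90921337, strand -: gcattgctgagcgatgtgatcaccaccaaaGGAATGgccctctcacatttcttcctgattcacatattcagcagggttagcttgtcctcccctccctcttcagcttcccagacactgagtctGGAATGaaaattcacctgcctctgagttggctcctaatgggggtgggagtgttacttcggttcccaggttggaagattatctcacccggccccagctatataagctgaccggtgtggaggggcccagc
CCN2 held words 169, 104 and 95 bases before its start and ANKRD1 words 220 and 128 bases before it.

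Phosphatases of the MAP kinase cascade and enzymes of cAMP signalling were among the signalling genes that rose. The list of MAPK phosphatases and Sprouty had 13 tested genes of 19, of which 6 rose and 4 fell (9 and 4 after median centring). The phosphatases DUSP2 (2.63), DUSP7 (2.28) and DUSP9 (1.92) rose, IER3 (-1.71) and PHLDA1 (-1.30) fell, and SPRY2 was at -0.03 (adjusted p = 0.669). For GPCR regulators and cAMP enzymes, 35 of 47 listed genes were tested, of which 15 rose and 17 fell (16 and 12 after median centring), and 11 (31.4%) rose and 4 (11.4%) fell at least 2-fold. PRKAR2B, a regulatory subunit of protein kinase A, had signals of 634, 526, 585 and 530 without OHT and 5239, 5005, 4953 and 4966 with OHT. The cAMP phosphodiesterase PDE4A (2.73) and the adenylyl cyclase ADCY1 (2.57), enzymes with opposite actions on cAMP, rose together with PRKAR2B (3.12 ± 0.06 (SE)), and CREM (-1.64) and RGS16 (-1.29) fell. Of 36 tested genes among the 53 listed as PI3K, AKT and insulin signalling, 14 rose and 19 fell (16 and 17 after median centring). The AKT phosphatase PHLPP1 (2.65), the lysosomal GTPase RRAGD (2.50) and AKT1 (1.36) rose, and TRIB2 (-2.59), PIK3R4 (-1.77) and RPS6KB1 (-1.28), the S6 kinase, fell.

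Members of transcription factor lists were called both higher and lower, as in most lists here. The relatives set against each other below include the largest changes each way. The list of KLF and SP factors had 13 tested genes of 19, of which 8 rose and 3 fell (8 and 3 after median centring), 3 and 3 of them at least 2-fold. KLF6, a zinc finger factor induced by stress, had signals of 866, 731, 721 and 718 without OHT and 54.2, 71.5, 74.9 and 78 with OHT. KLF10, which responds to TGF-beta, had 1762, 1758, 1735 and 1566 without OHT and 6654, 6795, 6419 and 6727 with OHT. These relatives did not overlap and lay at -3.18 ± 0.11 (SE) and 1.95 ± 0.04 (SE); KLF7 (-2.07) and KLF5 (-1.40) fell and KLF13 (1.68) and KLF2 (1.42) rose. Of 12 tested genes among the 16 listed as AP-1 factors, 9 rose and 3 fell (9 and 3 after median centring). At least 2-fold, 4 (33.3%) rose and 2 (16.7%) fell. MAF (1.37), MAFF (1.17) and FOS (1.01) rose and FOSL1 (-1.11), BATF (-1.06) and JUN (-0.63) fell. EGR, NR4A and SRF targets had 19 tested genes out of 23, and 6 rose and 12 fell (6 and 11 after median centring). NR4A2, an orphan nuclear receptor, had signals of 59.5, 65.2, 72 and 69.5 without OHT and 1195, 1266, 1185 and 1164 with OHT. EGR4, an early growth response factor, had 28.2, 30.7, 31.1 and 36.5 without OHT and 448, 407, 387 and 364 with OHT. EGR4 (3.13), NR4A3 (2.69), NR4A1 (1.95, with another probe set at -0.45) and EGR1 (1.09) rose. In the same list SRF (-0.97) and its cofactors MRTFA (-1.49) and MRTFB (-1.17) fell, as did FHL2 (-2.88), a LIM protein that binds SRF. For ETS factors, 15 of 26 listed genes were tested, of which 5 rose and 7 fell (6 and 6 after median centring). Only 1 (6.7%) rose and 1 (6.7%) fell at least 2-fold, ELF4 (1.70) and ETV1 (-1.61), and ETV5 (0.80) rose by less.

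The list of forkhead factors had 13 tested genes of 37, of which 6 rose and 4 fell (8 and 3 after median centring), and 5 and 0 changed at least 2-fold. FOXF1, a regulator of mesenchyme, had signals of 192, 182, 178 and 187 without OHT and 1879.5, 1786, 1686 and 1605 with OHT. FOXO1 had 92.4, 107, 101 and 112 without OHT and 533, 515, 502 and 456 with OHT. FOXO3, the other target of the hairpins used in the rest of the series, had 424, 509.6, 448 and 415 without OHT and 1785, 1736, 1808 and 1844 with OHT. All 3 were separated, at 3.13 ± 0.06 (SE), 2.12 ± 0.09 (SE) and 1.96 ± 0.06 (SE), and FOXF2 (2.43) rose as well, while FOXM1 (-0.42), a driver of mitotic genes, fell. Of 16 tested genes among the 39 listed as SOX, RUNX and skeletal lineage genes, 7 rose and 5 fell (9 and 4 after median centring). Next to SOX9 the stem cell factor SOX2 (-1.21) fell, and CBFB (1.83), the partner of RUNX factors, rose. Homeobox genes had 35 tested genes out of 85, and 18 rose and 12 fell (20 and 9 after median centring), and 11 (31.4%) rose and 5 (14.3%) fell at least 2-fold. IRX4 (3.31), LHX2 (2.93) and PITX1 (2.25) rose, and TGIF1 (-2.79), a corepressor of SMADs, MEIS1 (-2.67) and PBX2 (-2.09), partners of HOX proteins, fell. For the MYB family and MYC network, 13 of 15 listed genes were tested, of which 4 rose and 5 fell (6 and 4 after median centring). Among these, 3 (23.1%) rose and 2 (15.4%) fell at least 2-fold. MYBL1 (1.33) rose with MYB, MYBL2, a known E2F target, was at 0.13 (adjusted p = 0.0892; 0.18 and called higher without array 1 of either group), and MYC and its partner MAX fell. MYC had signals of 1314, 1291, 1330 and 1404 without OHT and 355, 317, 444 and 443 with OHT, and MAX had 1304, 1378, 1369 and 1339 without OHT and 464, 505, 469.6 and 471 with OHT. The arrays of neither overlapped, and the differences were -1.75 ± 0.09 (SE) and -1.47 ± 0.05 (SE).

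The list of bHLH, TCF and SNAIL factors had 14 tested genes of 26, of which 6 rose and 4 fell (8 and 4 after median centring). Each way, 3 (21.4%) changed at least 2-fold. The hypoxia factor EPAS1 (2.60) and TFEB (1.95), a regulator of lysosomal genes, rose, and the repressors BHLHE40 (-2.65) and SNAI2 (-1.87) and TCF4 (-1.41) fell. The circadian clock list had 16 tested genes out of 22, and 7 rose and 6 fell (7 and 5 after median centring). A change of at least 2-fold was called higher for 3 (18.8%) and lower for 1 (6.2%). PER2, a repressor of the clock, had signals of 346, 370.1, 309 and 424 without OHT and 2095, 2028, 1964 and 2034 with OHT, a rise of 2.44 ± 0.08 (SE), and NFIL3 (1.40) rose too. Of 26 tested genes among the 47 listed as nuclear receptors and coregulators, 12 rose and 11 fell (13 and 10 after median centring), with 8 and 7 changing at least 2-fold. NR2F6 (2.48) and the coactivator NCOA1 (1.57) rose, and the retinoic acid receptor RARA (-2.07), the vitamin D receptor VDR (-1.68) and NR2C2 (-1.61) fell. ESR1, which encodes the receptor from which the activating domain of the fusion derives, had signals of 373, 229, 197 and 200.2 without OHT and 142, 138, 82.8 and 91 with OHT and fell by 1.02 ± 0.20 (SE); the labels do not state whether its probe set detects the fusion.

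**Figure D4:**
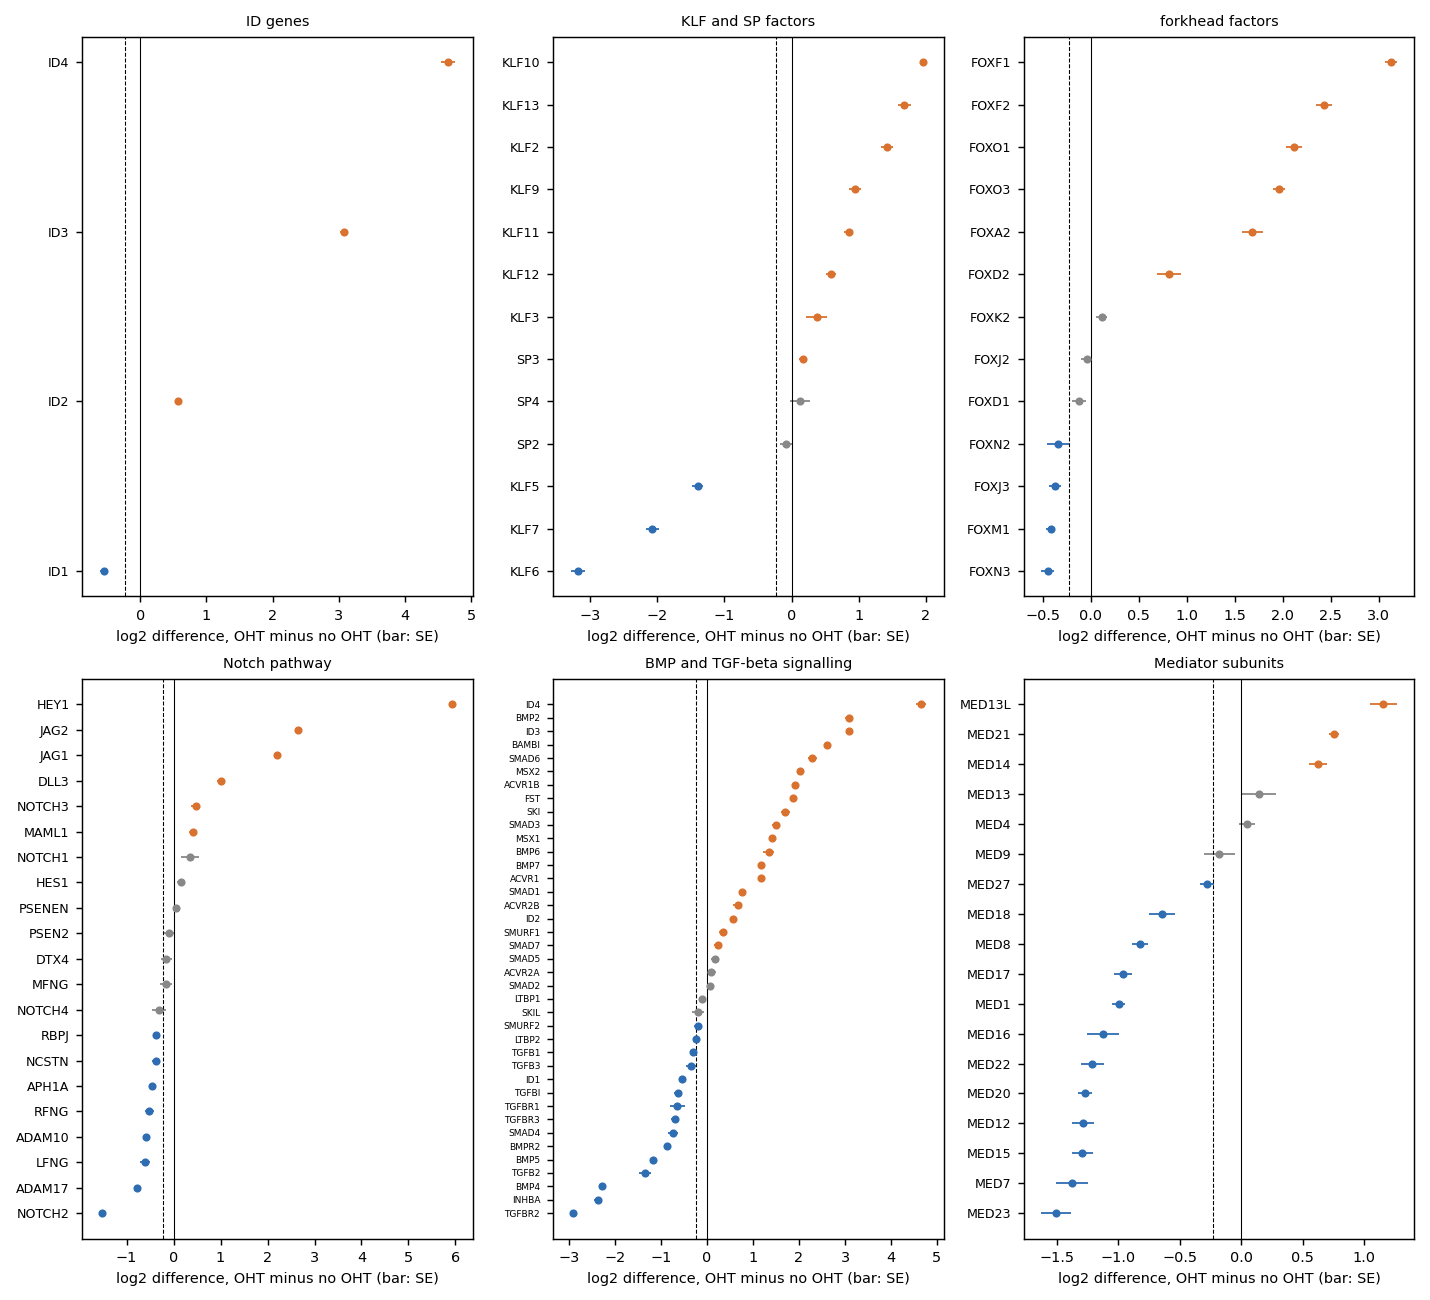
Log2 difference (OHT minus no OHT, with its standard error as a bar) of the tested members of 6 families in scrambled cells: ID genes, KLF and SP factors, forkhead factors, the Notch list, the BMP and TGF-beta list, and Mediator subunits. Orange and blue points were called higher and lower and grey points were not called; the dashed line is the median of all genes, -0.23. Relatives lie on both sides of it, as ID4 (4.65) and ID1 (-0.55), KLF10 (1.95) and KLF6 (-3.18), or BMP2 (3.08) and BMP4 (-2.27).

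Chromatin enzymes were called higher and lower, EZH2 among the former. For chromatin modifiers, 78 of 98 listed genes were tested, of which 31 rose and 33 fell (41 and 22 after median centring), with a median of 0.07. Changes of at least 2-fold were called higher in 9 (11.5%) and lower in 7 (9.0%), against 10.1% and 12.7% of all tested genes. EZH2, the methyltransferase of Polycomb, had signals of 461, 473, 394 and 388 without OHT and 1639, 1475, 1496 and 1569 with OHT. CHD7, a remodeller, had 379, 392, 354 and 328 without OHT and 2902, 2595, 2479 and 2995 with OHT. Both were separated between groups (1.81 ± 0.07 (SE) and 2.86 ± 0.07 (SE)). The acetyltransferase KAT2B (2.05) and the demethylase KDM3A (1.41) rose, the demethylase KDM5B (-2.18) and BRD3 (-1.32) fell beside ARID5B, and the maintenance methyltransferase DNMT1 was at -0.10 (adjusted p = 0.11; -0.14 and called lower without array 2 of either group). The list of high mobility group genes had 16 tested genes of 17, of which 6 rose and 10 fell (6 and 8 after median centring): TOX (2.93) and HMGB3 (0.99) rose and HMGN4 (-1.92) and HMGA2 (-0.67) fell, the last not called with all 14 arrays and the hairpins pooled (limma adjusted p = 0.115). Of 16 tested genes among the 54 listed as histone genes, 1 rose and 13 fell (3 and 8 after median centring). H2AC6 (-1.43) and H2BC21 (-1.30) fell, the variant H3-3A (0.56) rose, and the variant H2AZ1 was at 0.03 (adjusted p = 0.545); probe sets of near-identical histone genes can share signal. The count of higher members was 2 without array 4 of the cells without OHT.

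Interferon-stimulated genes changed in both directions. Interferon-stimulated genes had 24 tested genes out of 44, and 6 rose and 15 fell (6 and 14 after median centring), with a median of -0.67, and 3 (12.5%) rose and 8 (33.3%) fell at least 2-fold. IFI16, a DNA sensor, had signals of 1467, 1548, 1675 and 1722 without OHT and 243, 312, 229 and 281 with OHT. USP18, which removes the ubiquitin-like ISG15, had 45.1, 69.2, 70.5 and 75 without OHT and 636, 611, 631 and 668 with OHT. IRF1 (1.65) and the RNA-activated kinase EIF2AK2 (1.49) rose with USP18 (3.03 ± 0.12 (SE)), and RIGI (-1.62) and TRIM21 (-1.60) fell with IFI16 (-2.53 ± 0.09 (SE)), so that members of the same response went opposite ways. For MHC class I presentation, 18 of 23 listed genes were tested, of which 3 rose and 5 fell (10 and 1 after median centring). The immunoproteasome subunit PSMB9 (1.65) and the peptide transporter TAP1 (0.92) rose, HLA-E (-0.41) fell, and B2M was at -0.07 (adjusted p = 0.144; called lower at -0.10 without array 1 of the cells without OHT and higher at 0.13 after median centring). The count of lower members was 3 without array 3 of the cells without OHT or array 2 of those with OHT. The list of cytokines, chemokines and endothelin had 33 tested genes of 60, of which 13 rose and 13 fell (16 and 11 after median centring), with 8 and 9 changing at least 2-fold. EDN1, a vasoconstrictor peptide, had signals of 314, 355, 391 and 417 without OHT and 20.6, 20.8, 12.1 and 20 with OHT. LIF, a cytokine of the IL6 family, had 471, 386, 404 and 451 without OHT and 27.8, 41.5, 67.9 and 31.1 with OHT. Both fell, at -3.49 ± 0.13 (SE) and -2.98 ± 0.17 (SE). The receptor IL1R1 (2.59), its accessory chain IL1RAP (1.98) and the cytokine inhibitor SOCS3 (2.14) rose. Of 20 tested genes among the 23 listed as NF-kB subunits and feedback, 7 rose and 9 fell (9 and 8 after median centring), and 0 changed at least 2-fold; NFKB1 (0.99) rose, TNIP1 (-0.82) fell, and the feedback inhibitors NFKBIA and TNFAIP3 were at 0.12 and 0.16 (adjusted p = 0.3 and 0.156).

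Genes of matrix proteins mostly changed by less than 2-fold, and several enzymes that modify matrix changed by more. Matrix, collagens and laminins had 39 tested genes out of 60, and 7 rose and 17 fell (13 and 10 after median centring), and 2 and 0 changed at least 2-fold. COL15A1 (2.47) and the elastic fibre gene FBLN5 (2.15) rose and THBS1 (-0.83) fell, while FN1, which encodes fibronectin, was at -0.01 (adjusted p = 0.881). For hyaluronan and proteoglycan enzymes, 33 of 49 listed genes were tested, of which 13 rose and 14 fell (16 and 9 after median centring), with 7 and 3 changing at least 2-fold. CHST2, a sulfotransferase, had signals of 389.8, 319, 319 and 366 without OHT and 4018, 3772, 3869.9 and 3784 with OHT. CHST1 had 275, 256, 258 and 262 without OHT and 2349.6, 2373, 2365 and 2273 with OHT. CEMIP, which degrades hyaluronan, had 3.22, 28.4, 23.1 and 19.3 without OHT and 586, 597, 532 and 496 with OHT. CHST2 (3.42 ± 0.06 (SE)), CHST1 (3.08 ± 0.05 (SE)) and CEMIP (4.11 ± 0.21 (SE)) rose, and HAS2 (-1.28), which makes hyaluronan, fell, as did CHST15 (-1.33). The list of metalloproteases and TIMPs had 27 tested genes of 39, of which 7 rose and 11 fell (13 and 10 after median centring). MMP15 (3.02) rose, and the urokinase PLAU (-1.72), its receptor PLAUR (-1.34) and the inhibitor TIMP3 (-1.59) fell. Of 24 tested genes among the 37 listed as integrins and focal adhesion, 6 rose and 16 fell (7 and 12 after median centring). ITGB4 (1.46) and ITGAV (0.78) rose and ITGB8 (-1.83), TNS1 (-1.79) and ZYX (-1.42), a focal adhesion protein, fell. Cadherins, ephrins and semaphorins had 39 tested genes out of 76, and 20 rose and 15 fell (20 and 11 after median centring), and 10 (25.6%) rose and 6 (15.4%) fell at least 2-fold. The protocadherin PCDH9 (3.13) and the netrin receptor UNC5B (1.92) rose and PCDH17 (-1.85) and CDH18 (-1.40) fell. For caveolae, annexins and AHNAK, 28 of 35 listed genes were tested, of which 4 rose and 21 fell (6 and 14 after median centring), and 0 and 3 changed at least 2-fold, CAVIN2 (-2.15), AHNAK (-1.26) and EHD4 (-1.03). As the mean of its probe sets AHNAK was at -0.79, less than 2-fold. The caveolin CAV2 (-0.94) and ANXA1 (-0.84) fell by less than 2-fold. The count of higher members was 2, 1, 2 and 2 without array 1 or 4 of the cells without OHT and array 2 or 4 of those with OHT.

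A few cytoskeletal genes changed strongly, while most changed by less than 2-fold. The actin cytoskeleton list had 65 tested genes of 77, of which 15 rose and 34 fell (23 and 24 after median centring). In it 3 (4.6%) rose and 5 (7.7%) fell at least 2-fold, against 10.1% and 12.7% of all tested genes. LIMA1, which stabilises actin filaments, had signals of 2228, 2264, 2163 and 2239.7 without OHT and 232, 262, 283 and 268 with OHT. It fell by 3.02 ± 0.06 (SE), and the motor MYO10 (-2.02) and the membrane linker RDX (-1.39) fell, whereas the motor MYO6 (1.79) and EZR (1.01), a close relative of RDX, rose. Of 54 tested genes among the 67 listed as tubulins, kinesins and dynein, 18 rose and 31 fell (21 and 23 after median centring). Here 5 (9.3%) rose and 8 (14.8%) fell at least 2-fold. The motor KIF1A (1.95) and the plus-end protein CLIP1 (1.53) rose and the dynein light chain DYNLRB1 (-1.89) and TUBD1 (-1.68) fell.

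Several ion channels rose, while ABC and amino acid transporters changed in both directions. The list of potassium, calcium and chloride channels had 30 tested genes of 68, of which 16 rose and 11 fell (17 and 8 after median centring), and 10 (33.3%) rose and 2 (6.7%) fell at least 2-fold. GABBR2, a metabotropic receptor listed with the channels, had signals of 44.6, 60.1, 44.4 and 53.2 without OHT and 989.6, 1004, 1203 and 988 with OHT. The potassium channel gene KCNK10 had 42, 7.39, 55.5 and 17.4 without OHT and 470.3, 485, 450.3 and 345 with OHT. KCNN4, a calcium-activated potassium channel, had 711, 603, 524 and 512 without OHT and 102, 115, 106 and 114 with OHT. KCNK10 (3.41) and KCNA3 (2.93) rose while KCNN4 (-2.26) and CLCN3 (-1.24) fell. ABC transporters had 18 tested genes out of 35, and 7 rose and 9 fell (8 and 8 after median centring), with 2 (11.1%) and 1 (5.6%) changing at least 2-fold. Beside ABCG2 the lysosomal ABCA5 (2.64) rose, and the cobalamin transporter ABCD4 (-1.06) and ABCC5 (-0.95) fell. For amino acid transporters, 17 of 27 listed genes were tested, of which 4 rose and 12 fell (5 and 9 after median centring), with 2 (11.8%) and 4 (23.5%) changing at least 2-fold. SLC1A4 (2.52), a carrier of neutral amino acids, rose, and the cystine transporter SLC7A11 (-1.70) and the glutamate transporter SLC1A3 (-1.62) fell.

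Sphingolipid enzymes included some of the largest changes in both directions. Of 31 tested genes among the 49 listed as sphingolipid enzymes, 15 rose and 14 fell (16 and 9 after median centring), and 9 (29%) rose and 3 (9.7%) fell at least 2-fold. SPHK1, which makes sphingosine 1-phosphate, had signals of 148, 196, 224 and 148 without OHT and 2605, 2632, 2479 and 2529 with OHT. B4GALT6, a lactosylceramide synthase, had 127, 112, 103 and 122 without OHT and 1494, 1402, 1229 and 1209 with OHT. ST6GALNAC5, which sialylates gangliosides, had 1488, 1456, 1636 and 1407 without OHT and 97.1, 149.5, 142 and 116 with OHT. These 3 and FA2H were separated between groups, at 3.74 ± 0.11 (SE), 3.35 ± 0.09 (SE) and -3.43 ± 0.11 (SE). SPTLC1 (-0.49), of the enzyme that starts the pathway, and the ceramide carrier CERT1 (-1.07) fell. Sterol and fatty acid synthesis had 31 tested genes out of 44, and 6 rose and 21 fell (6 and 13 after median centring), with 1 and 2 changing at least 2-fold. ACSL1 (2.50), which activates fatty acids, and FASN (0.76) rose, and NSDHL (-1.19) and MSMO1 (-1.07), of sterol demethylation, fell. For glycolysis and hypoxia response, 35 of 41 listed genes were tested, of which 15 rose and 14 fell (20 and 9 after median centring). The glucose transporters SLC2A3 (-2.85) and SLC2A1 (-1.83) and the mTORC1 inhibitor DDIT4 (-1.63) fell, and EGLN1 (2.10), ENO2 (1.97) and HK2 (1.29) rose. SLC2A3 had signals of 731, 949, 875 and 859 without OHT and 111, 113, 92.2 and 101 with OHT, with no overlap.

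Cytosolic ribosomal proteins and oxidative phosphorylation subunits that were tested changed by less than 2-fold, and the balance of cytosolic ribosomal calls turned with the scaling. Of 52 tested genes among the 79 listed as cytosolic ribosomal proteins, 1 rose and 39 fell (17 and 2 after median centring), which after quantile normalization was 9 and 24, and 0 changed at least 2-fold. RPL18 (-0.29) fell and RPL35 (0.12) rose; the first was not called as the mean of its probe sets (limma adjusted p = 0.0886), and the other not with all 14 arrays and the hairpins pooled (limma adjusted p = 0.0511). The count of higher members was 2 without array 4 of the cells without OHT. The list of oxidative phosphorylation subunits had 62 tested genes of 75, of which 3 rose and 47 fell (12 and 21 after median centring), or 3 and 52 after quantile normalization, again with 0 at least 2-fold, from NDUFA8 (-0.66) to COX5A (0.45). For proteasome subunits, 41 of 46 listed genes were tested, of which 8 rose and 28 fell (10 and 19 after median centring), and 1, PSMB9, changed at least 2-fold. Mitochondrial ribosomal proteins had 49 tested genes out of 56, and 4 rose and 35 fell (8 and 26 after median centring), and 0 and 5 changed at least 2-fold, among them MRPS30 (-1.40), MRPL58 (-1.28) and MRPS12 (-1.25). Translation factors and tRNA synthetases had 61 tested genes out of 73, and 8 rose and 44 fell (11 and 29 after median centring). EEF1A2 (1.33) and EIF3J (1.02) were the 2 (3.3%) that rose at least 2-fold. The synthetases HARS2 (-1.41) and CARS1 (-1.12) were the 2 (3.3%) that fell at least 2-fold. Of 76 tested genes among the 83 listed as splicing factors and hnRNPs, 27 rose and 29 fell (38 and 21 after median centring), or 25 and 33 after quantile normalization, so that its balance turned with the scaling. Few of these changed at least 2-fold, 4 (5.3%) higher and 3 (3.9%) lower. HNRNPA0 (1.35) and HNRNPH3 (1.29) rose and RBM5 (-1.53) and the kinase CLK4 (-1.47) fell.

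Factors that assemble ribosomes and that transcribe genes were mostly called lower, as were 54.1% of all tested genes. Several of these factors fell strongly. For ribosome biogenesis and RNA polymerase I and III, 54 of 68 listed genes were tested, of which 10 rose and 41 fell (11 and 32 after median centring), with a median of -0.69, and 5 (9.3%) rose and 15 (27.8%) fell at least 2-fold. POLR3B, a catalytic subunit of RNA polymerase III, had signals of 645, 568, 509 and 552 without OHT and 94.6, 109.7, 125 and 124 with OHT. NOP16, a nucleolar assembly factor, had 1341, 1213, 1271 and 1243 without OHT and 296, 248, 285 and 313 with OHT. RRS1 had 777, 663, 638 and 658 without OHT and 237, 183, 170.4 and 200.4 with OHT. None of these overlapped (-2.18 ± 0.10 (SE), -2.09 ± 0.07 (SE) and -1.72 ± 0.10 (SE)), while RRP1B (1.76), the polymerase I factor UBTF (1.47), POLR3G (1.43) and nucleolin gene NCL (0.76) rose. The list of RNA polymerase II, Mediator and general factors had 69 tested genes of 84, of which 9 rose and 44 fell (16 and 34 after median centring), and 3 (4.3%) rose and 13 (18.8%) fell at least 2-fold. Its median was -0.30, against -0.23 for all tested genes. The Mediator subunits MED23 (-1.50), MED7 (-1.38) and MED1 (-1.0) and GTF2F2 (-1.36), of TFIIF, fell, whereas TAF4, a subunit of TFIID, had signals of 698, 535, 781 and 623 without OHT and 4888, 4844, 4456 and 4840.1 with OHT and rose by 2.83 ± 0.09 (SE); TAF5L (1.75) and MED13L (1.15) rose too, and the polymerase gene POLR2A was at -0.15 (adjusted p = 0.147; -0.22 and called lower without array 2 of the cells with OHT).

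Genes of protein turnover and membrane traffic changed in both directions. The list of KLHL, cullin and F-box ubiquitin ligases had 50 tested genes of 71, of which 13 rose and 31 fell (15 and 25 after median centring), with 2 and 10 changing at least 2-fold. KLHL21 and CUL4A (1.26) were the 2 that rose at least 2-fold, the E2F target SKP2 rose by 0.89, and FBXL4 (-1.73), FBXO28 (-1.59) and CUL5 (-1.53) fell. Of 65 tested genes among the 74 listed as TRIM and other RING ligases, 23 rose and 34 fell (24 and 24 after median centring), with 12 and 11 changing at least 2-fold, TRIM33 (1.89) and PELI1 (1.90) among those that rose and TRIM16 (-2.14) and CBLB (-1.82) among those that fell. Chaperones and unfolded protein response had 65 tested genes out of 75, and 9 rose and 44 fell (18 and 37 after median centring), with 4 and 11 at least 2-fold. The small heat shock gene HSPB8 had signals of 903, 949.7, 1105 and 971 without OHT and 161, 116, 132 and 124 with OHT. HSPB8 (-2.75 ± 0.10 (SE)), the cochaperones DNAJB4 (-2.46) and DNAJC16 (-1.93) and HSPA5 (-0.67), the main chaperone of the endoplasmic reticulum, fell, and CHAC1 (2.35), BAG1 (1.45) and the histone chaperone DNAJC9 (1.26) rose. For autophagy and lysosome, 59 of 69 listed genes were tested, of which 17 rose and 32 fell (23 and 20 after median centring). The protease CTSV (1.87) and ULK2 (1.45) were among 4 (6.8%) that rose at least 2-fold. The receptors NBR1 (-1.41) and SQSTM1 (-1.30) were among 7 (11.9%) that fell at least 2-fold. The list of nuclear pore and nuclear transport had 55 tested genes of 60, of which 15 rose and 30 fell (20 and 19 after median centring). The tRNA exporter XPOT (1.78) was among 3 (5.5%) that rose and NUP62 (-1.70) among 3 (5.5%) that fell at least 2-fold. Of 61 tested genes among the 86 listed as RAB and ARF GTPases, 14 rose and 36 fell (17 and 27 after median centring), with 9 and 12 changing at least 2-fold; RAB26 (2.22), RAB6B (2.21) and ARF6 (1.80) rose, and RAB9A (-2.44) and RAB8B (-1.89) fell beside RIN2.

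Families were also formed from symbols alone, so that their members were not picked for function or values. The families described below were then picked among all that were formed, for their medians, calls or size. Genes were grouped by the letters before the first digit of the symbol, which gave 76 families with 10 or more tested genes and 1682 genes in all. These groups overlap the lists above, and a shared stem is no proof of a shared function. The lowest medians were those of Mediator genes (MED, -0.96), syntaxins (STX, -0.86), tetratricopeptide genes (TTC, -0.85) and DEAH-box helicases (DHX, -0.80). Of the 13 syntaxins, which fuse membranes, 0 rose and 11 fell (1 and 11 after median centring); of the 10 TIMM genes, which import mitochondrial proteins, 0 rose and 9 fell (0 and 9 after median centring); and of the 26 VPS genes, which sort proteins to endosomes and lysosomes, 1 rose and 20 fell (1 and 15 after median centring). Of the 11 TRAPPC genes, subunits of a Golgi tether, 0 rose and 10 fell (0 and 8 after median centring). The 11 FKBP genes (0 rose and 9 fell, 0 and 5 after median centring) held no increase either. The same was true of the 10 NDUFA genes (0 and 8, 0 and 4 after median centring). The largest family was that of ZNF zinc finger genes, of which 138 were tested: 18 rose and 90 fell (33 and 72 after median centring), and 4 and 25 changed at least 2-fold. The highest medians were those of KLF genes (KLF, 0.72), orphan G protein-coupled receptors (GPR, 0.70), leucine-rich repeat genes (LRRC, 0.35) and dual-specificity phosphatases (DUSP, 0.33). Of the 12 GPR genes 8 rose and 0 fell (8 and 0 after median centring), and of the 16 LRRC genes 8 rose and 5 fell (10 and 4 after median centring), with 5 and 0 at least 2-fold. Solute carriers (SLC) were balanced in size: of 130 tested, 41 rose and 63 fell (46 and 48 after median centring), and 19 and 20 changed at least 2-fold.

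**Figure D5:**
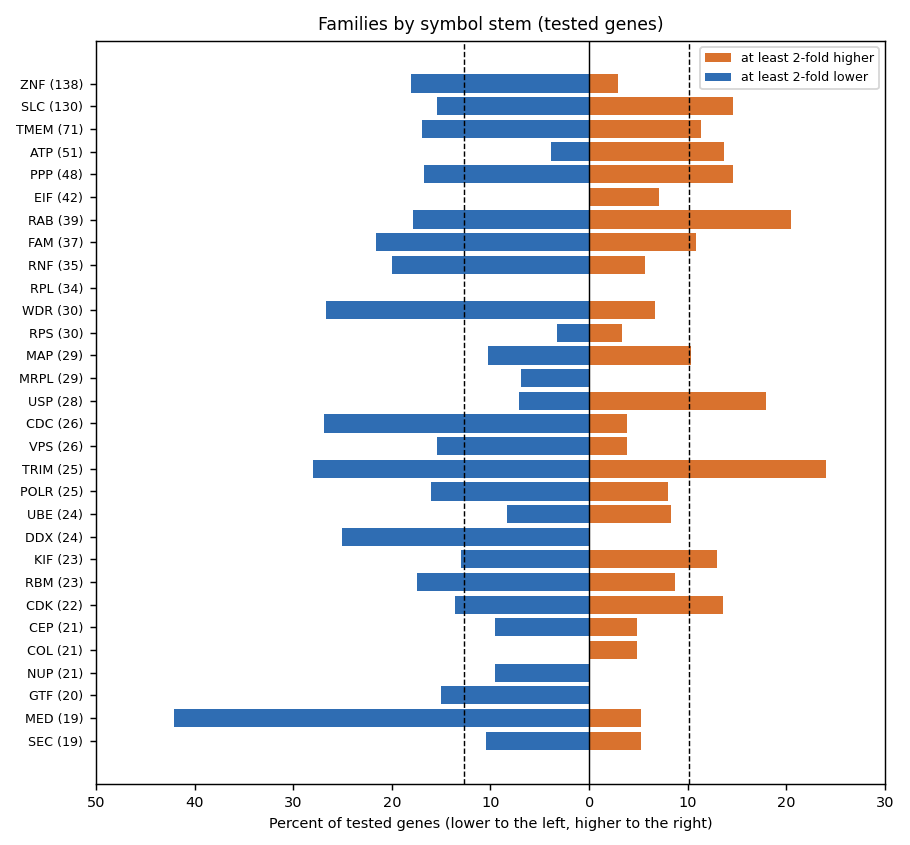
Share of tested genes called at least 2-fold higher (orange, to the right) and at least 2-fold lower (blue, to the left) in scrambled cells with OHT, for the 30 symbol stem families with the most tested genes; the number of tested genes stands after each stem. Dashed lines mark the shares over all 7720 tested genes, 10.1% higher and 12.7% lower; ZNF genes lie at 2.9% higher and 18.1% lower and MED genes at 5.3% higher and 42.1% lower.

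The same difference was read on arrays that the fit did not use and that share no control array with it. Their values did enter the mean over all arrays that set the filter and chose the probe set of each gene. The genes were thus not selected independently of these arrays. These are the 2 arrays without OHT and the 4 with OHT of cells carrying shFOXO33 or shFOXO707. Over all 7720 genes their arrays did not overlap in 1599 genes that were higher with OHT (20.7%) and in 2877 that were lower (37.3%). Of the 781 genes called higher at least 2-fold in scrambled cells, 746 were higher without overlap on the hairpin arrays (95.5%), and of the 979 called lower, 926 were lower without overlap (94.6%), with 0 and 0 in the opposite direction. HEY1 had signals of 248 and 261 without OHT and of 11272, 10111, 10985 and 10520 with OHT on these arrays. ANKRD1 had 899 and 949 without and 52.2, 64.4, 38.2 and 59.3 with OHT. FOXO3, which both hairpins target, had 138 and 274 without and 289.6, 325, 853 and 766 with OHT, against means of 449 and 1793 in scrambled cells. Whether the sizes of the changes differ between the viruses was not tested here.

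Probe sets of 1 gene mostly moved the same way. Of 2582 genes with more than 1 probe set above the filter level, 76 had probe sets called in opposite directions, and in 2 of these both directions reached 2-fold. Of the genes named here NR4A1 was among the 76, as was HNRNPDL, a splicing regulator, whose probe sets ran from -0.28 to 1.52.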

How the data were processed

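Each array measured RNA of 1 sample. The authors deposited intensity values, 1 linear signal per probe set and array, made with MAS5 according to the submitters' processing notes, which name no version. The trimmed mean (2% at each end) was 500 on each of the 14 arrays, so that signals are relative within an array. Of 22277 probe sets, 19064 name 1 gene, 1043 several and 2108 none, and only the first kind was used, with symbols updated through Entrez identifiers to RefSeq (GRCh38.p14) for 19052.

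Values were taken as log2(signal + 16). Probe sets under the 40th percentile of the mean over all 14 arrays (a signal of 79.1) were left out, which kept 11438, and the one with the highest mean stood for each gene. The 4 arrays with OHT and the 4 without were compared with limma 3.58.1 (lmFit, and eBayes with a trend) in R 4.3.3, with Benjamini-Hochberg adjustment over 7720 genes and a two-sided threshold of 0.05. Precision is limited by the number of arrays, and the median SE was 0.08 log2. In data simulated for this comparison with 7720 genes, 100% of 100 genes changed by 1 log2 and 86% of 100 changed by 0.5 were recovered, with 10 false calls. Only these genes were changed there, the noise was normal, and no shift of the array scale was simulated. In the data 81.4% of genes were called, so these rates need not hold for them.

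The members, 66 gene lists, 5 marker lists and tests were chosen with earlier results of these data known. The result of 1 of the 66 lists is not reported here. Named genes are the 15 largest changes each way among called genes whose arrays do not overlap, up to 3 members each way per list, the lists' key members, and E2F1, FOXO1 and FOXO3. Alternatives covered the scaling, pseudocount (1 and 64), filter (none and the 60th percentile), probe set choice, arrays in the fit, variance prior, replicate block and each array left out.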

Additional observations from a re-analysis of the deposited data

Results flagged for a closer look

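In 34 of 680 groups of 4 arrays, over the genes named in the text, 1 array lay so far from the other arrays of its group that its gap to the nearest, divided by the group's range, passed Dixon's critical value for 4 values. Chance gives about 1 in 20 groups, and the share marked here was the same. The marks listed below are thus as many as chance alone would give. Array 1 of the cells without OHT stood apart in the signal of AKT1 (508, the others 435 to 445), CASP8 (444, the others 516 to 519), COX5A (4274, the others 5113 to 5234), FOSL1 (524, the others 445 to 450.3), KLF6 (866, the others 718 to 731), SKP2 (3430.3, the others 3101 to 3119) and TRAF3 (318, the others 191 to 200.1). Array 2 of the cells without OHT stood apart in the signal of RPL18 (11708, the others 12429 to 12526). Array 3 of the cells without OHT stood apart in the signal of APC (399, the others 435 to 440.1), FAS (1687, the others 1502 to 1510.2) and KDM5B (686, the others 515 to 539.9). Array 4 of the cells without OHT stood apart in the signal of ACKR3 (1102, the others 972 to 989), BAG1 (567, the others 559 to 559.9), HMGA2 (295, the others 357 to 358), KLF10 (1566, the others 1735 to 1762), NDUFA8 (1172, the others 1111 to 1119), NR4A1 (79.8, the others 102 to 104), RPL35 (8114, the others 7732 to 7768), SMAD7 (843, the others 681 to 700.4) and ULK2 (101, the others 113 to 116). Array 1 of the cells with OHT stood apart in the signal of ARID5B (74.4, the others 90.3 to 92.3), E2F5 (185, the others 91.7 to 108), KDM3A (1767, the others 1546 to 1579), MYBL2 (1156, the others 1313 to 1338) and PELI1 (1424, the others 1246 to 1269.9). Array 2 of the cells with OHT stood apart in the signal of NOTCH1 (232, the others 139 to 153) and RPS6KB1 (301, the others 390 to 406). Array 3 of the cells with OHT stood apart in the signal of EDN1 (12.1, the others 20 to 20.8), GABBR2 (1203, the others 988 to 1004), TAF4 (4456, the others 4840.1 to 4888) and TNFSF9 (118, the others 69.2 to 76.3). Array 4 of the cells with OHT stood apart in the signal of BCL2L1 (277, the others 240.3 to 244), CCNG2 (640.4, the others 504 to 510.3) and LGR4 (91.8, the others 80.6 to 82.4).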

How the results depend on the processing

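The counts of 2109 genes called higher and 4175 called lower stayed within 1.5 times under all 21 alternatives. They were 2767 and 3099 after median centring on the tested genes, and 2619 and 3254 with the median of all probe sets above the filter, an alternative chosen after seeing the data. Leaving out each array in turn gave 2058 to 2083 higher and 4068 to 4106 lower. With the replicate block they were 2104 and 4162; nothing in the labels says what shared numbers mean, and deviations of same-numbered arrays correlated at 0.0265, 0.0462, 0.0241 and -0.0146, so the numbers were not taken as pairs. Of 7062 values for 340 named genes, 6983 kept direction and side of the threshold, 15 lost the call, 36 gained one and 28 changed sign. Of the 28, 7 were called under the alternative: B2M (0.13), CDKN1A (0.17), FN1 (0.19) and SPRY2 (0.17) after median centring, CDKN1A (0.13) and FN1 (0.16) with the median of all probe sets, and FN1 (0.11) without probe sets ending in _x_at. The other 21 were called in neither fit, among them DNMT1 (0.090) and POLR2A (0.046) after median centring; B2M (0.10), DNMT1 (0.058), POLR2A (0.015) and SPRY2 (0.13) with the median of all probe sets; B2M (0.0073), E2F1 (0.015), FN1 (0.084), MCM3 (-0.056), POLR2A (0.056) and SPRY2 (0.12) after quantile normalization. The rest of the 21 came from leaving out single arrays, which ranged across 0 for CDKN1A (-0.059 to 0.0064), FN1 (-0.035 to 0.022), H2AZ1 (-0.011 to 0.061), MCM3 (-0.043 to 0.038) and SPRY2 (-0.049 to 0.0033). None of these genes was called on the deposited scale. A stricter filter left 5479 genes, and named genes it removed have no value there. The order of the largest changes depends on the added constant where 1 group lies below 79.1.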
